A study of Mus musculus with 18 samples.

Results

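The cytosolic heat shock proteins were followed through the retinal transcriptome as 10 genes, chosen by name: Hspa1a, Hspa1b, Hspa8, Hsph1, Hsp90aa1, Hsp90ab1, Dnajb1, Hspb1, Hspd1 and Hspe1. They are 10 of 35006 genes in the count files, and all 10 passed the filter on low counts, which left 16183 genes to test. The name covers 8 of the 10, because Hspd1 and Hspe1 encode the chaperonin of the mitochondrial matrix. All groups were retinas of male mice taken at 24 weeks of age. WT mice (C57BL/6J, 3 libraries) and Akita mice (C57BL/6-Ins2Akita/J, heterozygous, 4 libraries) drank plain water. Akita mice carry a misfolding insulin 2 that is toxic to beta cells and become diabetic early in life without any injected toxin, so that insulin lack and hyperglycaemia come with the genotype. Mice of the WT + NACET group (6 libraries) and the Akita + NACET group (5 libraries) received N-acetyl-L-cysteine ethyl ester, a cell-permeable cysteine donor, in the drinking water from 4 weeks of age, at 0.33 mg/mL or a daily intake of about 50 mg/kg. The labels number the libraries but do not tie each to an animal in words, so p-values measure the spread between these libraries.

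Heat shock proteins hold unfolded polypeptides, pass them on for folding or mark them for disposal. HSP70 proteins bind short hydrophobic stretches in an ATP cycle that J-domain proteins start and HSP110 proteins, which exchange the nucleotide, reset. HSP90 proteins act later on kinases, receptors and other clients, and small heat shock proteins hold unfolded protein without ATP. Inducible members of the family are driven by the heat shock factor HSF1, which is kept inactive by chaperones and, when unfolded protein draws these away, binds runs of GAA units in alternating orientation, the heat shock element. In the retina, photoreceptors make large amounts of membrane protein and Mueller glia are known to raise small heat shock proteins under stress.

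Each library held 11495596 to 17814480 counts in genes, which over 18 libraries gave a mean of 15223809 ± 1707691 (SD). The rod genes Gnat1, Pde6b, Sag, Nrl and Nr2e3 were all detected and together made up 22875 to 47185 CPM (counts scaled to a common library size). Their sum was higher in every Akita library (33244 to 47185) than in every Akita + NACET library (22875 to 30942), with WT at 25271 to 35445 and WT + NACET at 31173 to 42521. The 8 pigment epithelium genes listed summed to 146 to 647 CPM in WT, 532 to 1391 in WT + NACET, 63.5 to 228 in Akita and 92.4 to 659.6 in Akita + NACET. The part of these cell types in the differences reported was not tested. Some libraries stood apart from their groups. Akita replicate 4 had the highest sum of these genes, 47185 CPM, and the lowest Mueller glia sum, 1754 CPM, where the other 3 Akita libraries had 33244 to 40364 and 2838 to 3475. WT + NACET replicate 5 held 16256 CPM of 12 lens genes, against 5.01 to 50.4 CPM in the other WT + NACET libraries, and Akita replicate 2 (2328 CPM) and Akita + NACET replicates 3 and 5 (936 and 270.3 CPM) also held lens RNA. Of reads with a unique alignment, those beyond annotated exons made up 14.9 to 17.1% in WT, 9.55 to 16.5% in WT + NACET, 9.67 to 13.3% in Akita and 14.3 to 19.8% in Akita + NACET. This share was thus highest in WT and Akita + NACET, so it moved with the comparisons. With it as a covariate, edgeR called 0 of 16183 genes in Akita against WT and 0 in Akita + NACET against Akita, where the fit without it called 1237 and 1562. Calls in these comparisons also rested on single libraries: 1 gene was called in Akita + NACET against Akita without Akita replicate 4 and 101 without Akita + NACET replicate 5, and in Akita against WT 234 were called without Akita replicate 4 and 0 without WT replicate 1 or 2. The percentages of all genes called that are given for these comparisons hold only with all 18 libraries and no covariate.

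How much of each gene could be counted depended on its sequence, since reads that align to several places were not counted. In mm9 (NCBIM37), Hspa1b (ENSMUSG00000090877.2) lies at chr17:35093381-35096183 and Hspa1a (ENSMUSG00000091971.1) at chr17:35106144-35109069, both on the minus strand and 9960 bases apart. Over 1926 aligned coding bases the pair differed at 8, an identity of 99.6%. Of the 2877 windows of 50 bases in the Hspa1a transcript, 1755 (61.0%) had an exact copy elsewhere in the genome, and 1710 of these lay in Hspa1b. Hspa1b had such a copy for 1716 of 2754 windows (62.3%), so both genes were counted on their remaining sequence. Hspa1a also shares 552 exonic bases with Gm20481 on the opposite strand, which the counting did not tell apart. Processed copies reduce the countable sequence of other members too: 75.7% of windows of Hspa8 (chr9:40609067-40613283), 73.1% of Hsp90aa1 (chr12:111928815-111940938), 63.0% of Hspb1 (chr5:136363789-136365433), 58.5% of Hspd1 (chr1:55134679-55145087) and 46.5% of Hspe1 (chr1:55144976-55148151) occurred elsewhere. Hsp90ab1 (chr17:45704724-45710220) had a copy for 8.3% of windows, Dnajb1 (chr8:86132074-86135801) for 0.768% and Hsph1 (chr5:150416862-150438951) for none of its 3753 windows. Reads that did count aligned to 1 place. A comparison between groups is made within 1 gene, while levels between genes are affected by repeated sequence. Any reads counted for Hspa1a in the bases shared with Gm20481 need not come from it. A mismatch in a read could also place it in the wrong gene of the Hspa1a and Hspa1b pair. The part of such reads in the levels of the pair, or in how the pair moved together, was not tested. The read length is not given in the sources used here, and 50 bases stand in for it.

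The promoters of the members that the results turn on are shown for the elements by which the family is known. RefSeq windows from 250 bases before to 50 after a start site (GRCm38.p6) were held for 7 of the 10 genes, and Hspa8, Hsp90aa1 and Hsp90ab1 had no entry. The motifs searched on both strands were the heat shock element of 3 units (GAANNTTCNNGAA or TTCNNGAANNTTC) and its shorter form of 2 units (GAANNTTC or TTCNNGAA), which lies inside the longer one. Matches are in capitals. Hspa1a (chr17:34972107-34972406, minus strand) and Hspa1b (chr17:34959189-34959488, minus strand) are shown as the pair that moved together, Hspe1 (chr1:55087898-55088197, plus strand) for its element shared with Hspd1, and Hsph1 (chr5:149636287-149636586, minus strand) for its matches on both sides of the start site.
Hspa1a: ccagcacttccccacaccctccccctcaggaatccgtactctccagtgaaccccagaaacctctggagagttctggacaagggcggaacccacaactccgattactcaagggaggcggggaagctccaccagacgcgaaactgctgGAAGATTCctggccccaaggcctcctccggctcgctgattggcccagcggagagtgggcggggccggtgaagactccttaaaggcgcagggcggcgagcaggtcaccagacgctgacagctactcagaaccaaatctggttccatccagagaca
Hspa1b: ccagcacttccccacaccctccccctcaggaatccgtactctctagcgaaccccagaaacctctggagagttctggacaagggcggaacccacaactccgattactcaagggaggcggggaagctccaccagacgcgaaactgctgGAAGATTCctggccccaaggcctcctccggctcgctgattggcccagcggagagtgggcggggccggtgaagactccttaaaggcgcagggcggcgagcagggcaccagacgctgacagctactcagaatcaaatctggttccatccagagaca
Hspe1: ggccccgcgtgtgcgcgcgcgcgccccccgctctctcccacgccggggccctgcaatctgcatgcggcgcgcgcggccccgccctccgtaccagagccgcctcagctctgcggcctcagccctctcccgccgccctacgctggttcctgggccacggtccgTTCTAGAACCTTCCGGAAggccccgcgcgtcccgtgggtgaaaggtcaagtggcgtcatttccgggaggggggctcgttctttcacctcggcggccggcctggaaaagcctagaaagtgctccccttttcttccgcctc
Hsph1: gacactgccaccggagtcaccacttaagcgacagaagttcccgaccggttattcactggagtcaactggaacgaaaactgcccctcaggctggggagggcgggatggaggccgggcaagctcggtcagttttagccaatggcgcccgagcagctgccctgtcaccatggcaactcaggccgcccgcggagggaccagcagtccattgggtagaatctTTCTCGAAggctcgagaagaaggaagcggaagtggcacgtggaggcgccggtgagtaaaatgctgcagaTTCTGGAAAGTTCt

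The Hspa1a and Hspa1b windows differed at 4 of 300 bases (98.7% identical). Counted from 1 at the 5′ end, with the base of Hspa1a first, the differences were C44T, T47C, T249G and C276T. None of them lies in the match of 2 units, which begins at position -104 from the start site in both genes. Hspd1 and Hspe1 are transcribed head to head, with 112 exonic bases in common. Hspd1 has 2 windows, for different starts. Only window 2 holds the same run of GAA units as the Hspe1 window, read from the opposite strand. In Hspe1 the run begins at position -89 from the start. Window 1 of Hspd1 holds no heat shock element match. In the window shown, Hsph1 had a match of 2 units at position -33 and a match of 3 units at position 37, after its start. In its other window, for a different start, these lay at -54 and 16. The motif of 3 units was found in 3 of the 7 genes (Hsph1, Hspd1 and Hspe1), and in 179 of 27025 genes (0.662%) in the whole table. The motif of 2 units was found in 6 of 7, all but Dnajb1, and in 17.0% of all genes. The core of the antioxidant response element (TGACNNNGC or GCNNNGTCA, both strands), to which the redox-sensitive factor NRF2 binds, matched in Hsph1 and Dnajb1, and in 14.0% of all genes. These matches describe letters in a window and not binding.

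Hsp90ab1 and Hspa8 led in level, and Hspb1 and Hspa1b came last. Per kb of exon, Hsp90ab1, the constitutive cytosolic HSP90, averaged 109 ± 15.6 CPM (SD, n = 18) and Hspa8, the constitutive HSP70, 71.1 ± 11.5 CPM. Hsp90ab1 was above Hspa8 in 18 of 18 libraries. Dnajb1 (47.0 ± 8.07) and Hsp90aa1 (40.3 ± 9.34), a J-domain partner and the inducible HSP90, overlapped in range, with Dnajb1 higher in 13 of 18 libraries. Hspa1a (23.5 ± 8.23), Hspe1 (23.4 ± 3.39) and Hspd1 (23.1 ± 2.28) could not be put in order, as Hspa1a exceeded Hspe1 in 10 libraries and Hspe1 exceeded Hspd1 in 13. Hsph1, the HSP110, followed at 12.0 ± 1.61 CPM per kb. Hspb1, the small heat shock protein HSP25, and Hspa1b were lowest, at 2.34 ± 2.16 and 1.98 ± 0.86 CPM per kb, with each higher than the other in 9 libraries. Set against only the windows without a copy elsewhere, Hspa8 came first at 519 CPM per 1000 windows, before Hsp90aa1 (182) and Hsp90ab1 (144), so the order at the top depends on how repeated sequence is treated. The scales also differ in length, since windows were taken from the longest transcript and the exon length covers all transcripts, which is why Hsph1, without repeated windows, differs between them too. Hspa1a stayed far above Hspa1b on this scale too (61.2 against 5.34 CPM per 1000 windows), although their promoters and coding sequences are nearly the same.

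**Figure D1:**
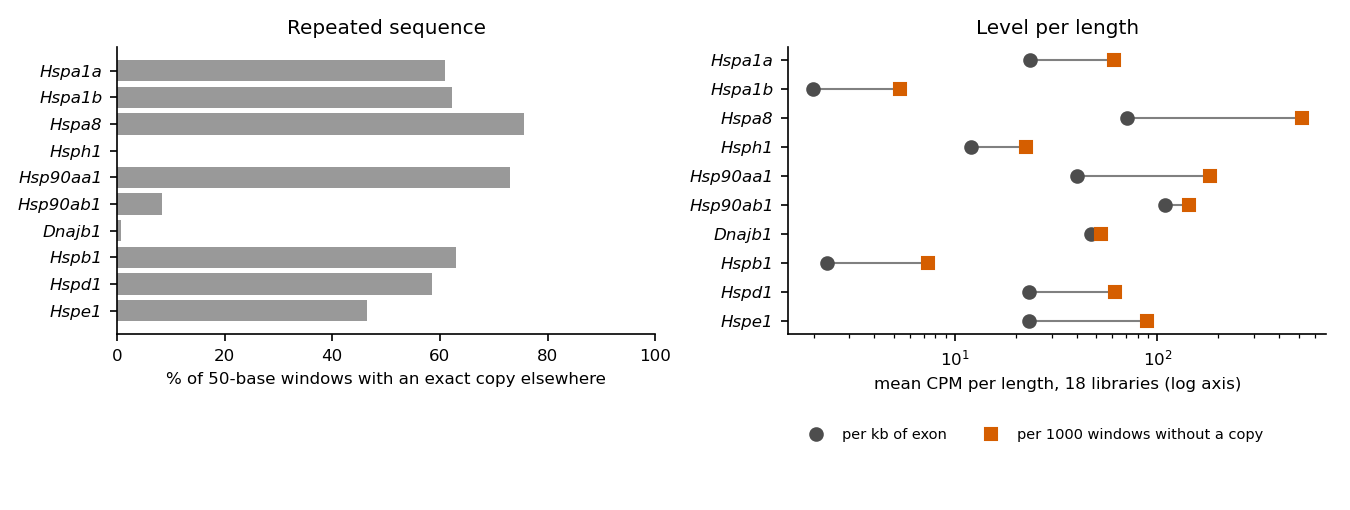
Left, percentage of 50-base windows of each gene's longest transcript that occur exactly elsewhere in mm9. Right, mean CPM over 18 libraries per kb of exon (circles) and per 1000 windows without a copy (squares) on a log axis. Hspa8 and Hsp90aa1, with 75.7 and 73.1% repeated windows, shift most between the scales, while Hspa1b and Hspb1 stay lowest on both.

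Hspa1a and Hspa1b, the stress-inducible HSP70 genes, were lowest in the retinas of WT mice given NACET. Hspa1a was at 51.2, 75.5 and 83.3 CPM in WT. It was at 35.1 to 53.8 CPM with a median of 47.5 in the 6 WT + NACET libraries. In Akita it was at 84, 76.3, 83.4 and 141 CPM, and in Akita + NACET at 67.5, 68.1, 67.5, 84.6 and 75.6 CPM. All Akita and all Akita + NACET libraries thus lay above all WT + NACET libraries, while WT overlapped every other group. Hspa1b was at 3.73, 6.08 and 6.56 CPM in WT and at 2.33 to 3.92 CPM with a median of 3.08 in WT + NACET. It was at 8.49, 6.37, 6.72 and 11.6 CPM in Akita and at 4.75, 5.25, 5.68, 7.77 and 7.84 CPM in Akita + NACET. The order of the groups was the same as for Hspa1a, with only the lowest WT library inside the WT + NACET range.

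Between the treated groups both genes differed. In Akita + NACET against WT + NACET, Hspa1a was higher by 0.65 ± 0.16 (log2 fold change ± SE, adjusted p = 0.0131), or 1.57-fold, and Hspa1b by 0.99 ± 0.2 (adjusted p = 0.00416), or 1.98-fold. These were 2 of 3 members called in that comparison, in which 13.3% of all genes tested were called. Both calls held under every alternative tried except the fit with the share of reads beyond exons as covariate, where the differences were 0.79 and 0.98 with adjusted p of 0.0604 and 0.0623. Counted as 1 gene, the pair was higher by 0.67 ± 0.16 (adjusted p = 0.0111).

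The untreated comparison pointed the same way without passing the threshold. In Akita against WT, Hspa1a differed by 0.46 ± 0.2 (adjusted p = 0.143) and Hspa1b by 0.59 ± 0.24 (adjusted p = 0.123). NACET went with lower values in both genotypes, also without a call: Hspa1a differed by -0.6 ± 0.18 in WT + NACET against WT (adjusted p = 0.0909) and by -0.4 ± 0.17 in Akita + NACET against Akita (adjusted p = 0.126). With the share of reads beyond exons as covariate, these were -0.73 (adjusted p = 0.2) and -0.21 (adjusted p = 0.817), and Hspa1a in Akita against WT was 0.27 (adjusted p = 0.659). For Hspa1b the NACET differences without the covariate were -0.79 ± 0.23 in WT (adjusted p = 0.076) and -0.4 ± 0.21 in Akita (adjusted p = 0.211). With it they were -0.79 and -0.4 (adjusted p = 0.293 and 0.713). DESeq2 called both genes in WT + NACET against WT, with adjusted p of 0.042 and 0.0388. So did the edgeR fit without Akita replicate 4, with adjusted p of 0.0251 and 0.0464, although that library is in neither group and enters only through the shared spread. The interaction of genotype with NACET was 0.19 for Hspa1a, with a 95% interval from -0.33 to 0.71, and 0.39 for Hspa1b, from -0.25 to 1.04, so a difference in response between the genotypes was not detectable. Against WT, Akita + NACET differed by 0.05 for Hspa1a (95% interval -0.34 to 0.45) and 0.2 for Hspa1b (-0.29 to 0.68).

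Immediate early genes were also low in WT + NACET. The 16 immediate early genes listed, all detected, summed to 335 to 389.9 CPM in WT, 194 to 252 in WT + NACET, 233 to 488 in Akita and 306 to 382 in Akita + NACET. The WT + NACET libraries lay below all WT and all Akita + NACET libraries. Dusp1, a phosphatase of the MAP kinases that is induced within minutes by many stimuli, was the listed gene called in WT + NACET against WT, at -1.07 ± 0.17 (adjusted p = 0.0023). The part of these genes in the HSP70 values was not tested.

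**Figure D2:**
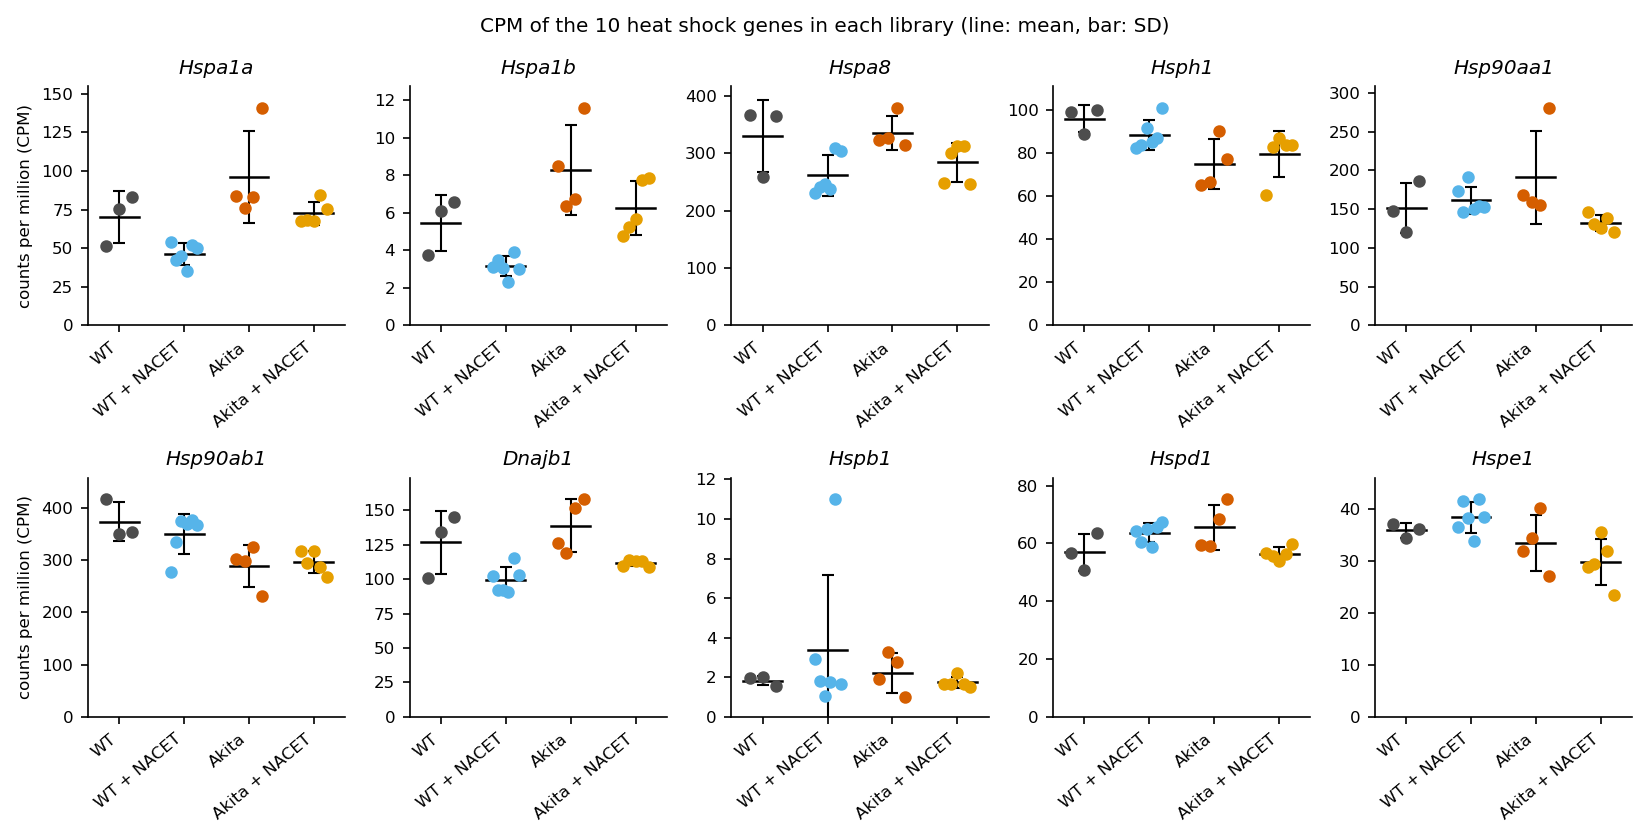
CPM (y axis, from 0) of the 10 genes in each of 18 libraries by group, with the mean as a line and the SD as a bar. Hspa1a and Hspa1b are lowest in WT + NACET, at 35.1 to 53.8 and 2.33 to 3.92 CPM. Akita replicate 4 stands out for Hspa1a (141 CPM) and Hsp90aa1 (281 CPM), and WT + NACET replicate 5 for Hspb1 (11 CPM).

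Dnajb1, the HSP40 partner that delivers clients to HSP70, followed the inducible HSP70 genes at a smaller scale. It was at 101, 134 and 145 CPM in WT and at 90.7 to 115 CPM with a median of 97.3 in WT + NACET. In Akita it was at 126, 119, 152 and 158 CPM, and in Akita + NACET at 109.8, 114, 113, 113 and 109 CPM. Every Akita + NACET library was below every Akita library, and the 5 Akita + NACET values had an SD of only 2.19 CPM. Dnajb1 differed by -0.31 ± 0.1 in Akita + NACET against Akita (adjusted p = 0.0584) and by -0.35 ± 0.11 in WT + NACET against WT (adjusted p = 0.09), neither past the threshold. DESeq2 called the first of these (adjusted p = 0.0357), and leaving out WT replicate 1 brought both under the threshold (adjusted p = 0.0406 and 0.0429), as did leaving out Akita replicate 2 for the first (0.0371). In the covariate fit the first was -0.13 (adjusted p = 0.785) and the second -0.48 (adjusted p = 0.0816). In Akita against WT the difference was 0.13 ± 0.12 (adjusted p = 0.498), and it turned to -0.01 without WT replicate 1 and to -0.04 with the share of reads beyond exons as covariate.

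Hspa8, the constitutive HSP70 that also strips clathrin from vesicles, was at 367, 258 and 364 CPM in WT and at 230 to 309 CPM with a median of 243 in WT + NACET. It was at 322, 326, 379 and 314 CPM in Akita and at 248, 300, 312, 312 and 247 CPM in Akita + NACET. All Akita libraries lay above all libraries of both treated groups, and WT overlapped every other group. No comparison of Hspa8 passed the threshold, with the lowest adjusted p of the designed comparisons at 0.156 for WT + NACET against WT (-0.34 ± 0.13). With the covariate this difference was -0.52 (adjusted p = 0.108), and the one in Akita + NACET against Akita was 0. Hsph1, the HSP110 nucleotide exchange factor of HSP70, went the other way from Hspa1a in Akita against WT, where neither gene was called. It was at 99.2, 88.6 and 100.1 CPM in WT and 82.1 to 101 CPM with a median of 86.1 in WT + NACET. In Akita it was at 65.1, 66.6, 90.4 and 77.4 CPM, and in Akita + NACET at 60.4, 83, 86.8, 83.8 and 83.5 CPM. Akita replicate 3 was the only Akita library inside the WT range. Hsph1 differed by -0.36 ± 0.12 in Akita against WT (adjusted p = 0.0702) and was called there in 3 of 29 alternatives. These were without Akita replicate 3 (-0.46, adjusted p = 0.0289), without Akita + NACET replicate 1 (adjusted p = 0.0409) and with only genes of at least 50 counts on average (adjusted p = 0.0456). With the covariate the difference was -0.52 (adjusted p = 0.273).

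The HSP90 genes differed in their pattern from each other. Hsp90aa1 was at 148, 121 and 186 CPM in WT and 147 to 192 CPM with a median of 153 in WT + NACET. It was at 168, 159, 156 and 281 CPM in Akita and at 147, 130.4, 126, 138 and 120.4 CPM in Akita + NACET. All Akita + NACET libraries were below all Akita libraries, and Akita replicate 4 was far above the rest. Hsp90aa1 was the member called in Akita + NACET against Akita, lower by 0.53 ± 0.15 on the log2 scale (adjusted p = 0.0374), as 1 of 10 members where 9.65% of all genes were called. Without Akita replicate 4 the difference was -0.28 ± 0.11 (adjusted p = 0.14), and the call was also lost without Akita + NACET replicate 2, 3, 4 or 5, with adjusted p of 0.0742, 0.0531, 0.0564 and 0.0991. In the fit with the share of reads beyond exons as covariate, the difference was -0.31 ± 0.2 (adjusted p = 0.684). The call was lost as well in a fit of the 2 groups alone (adjusted p = 0.0689), with no filter on low counts (0.0571) and with the replicate number as a block (0.0791), and it was kept in 19 of 29 alternatives.

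Hsp90ab1 was at 417, 351 and 355 CPM in WT and at 278 to 378 CPM with a median of 368 in WT + NACET. It was at 302, 298, 325 and 231 CPM in Akita and at 317, 295, 317, 287 and 268 CPM in Akita + NACET. All 9 Akita libraries, treated or not, lay below all 3 WT libraries. Its difference in Akita against WT was -0.37 ± 0.12 (adjusted p = 0.0594), the smallest p of the 10 genes in that comparison, and DESeq2 called it (adjusted p = 0.036), as did edgeR with only genes of at least 50 counts on average (adjusted p = 0.0425). Leaving out Akita replicate 3, Akita + NACET replicate 5 or WT + NACET replicate 1 also gave a call, with adjusted p of 0.0469, 0.0497 and 0.0412. Only 5 of 29 alternatives gave a call. With the share of reads beyond exons as covariate, the difference in Akita against WT was -0.49 (adjusted p = 0.273). In Akita + NACET against Akita it was 0.04 ± 0.11, with a 95% interval from -0.18 to 0.26.

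Hspb1 was low and was set by 1 library. It was at 1.94, 2 and 1.57 CPM in WT, at 1.06 to 11 CPM with a median of 1.77 in WT + NACET, at 1.89, 3.3, 2.76 and 0.995 CPM in Akita and at 1.65, 1.65, 2.23, 1.68 and 1.5 CPM in Akita + NACET. The value of 11 CPM (185 counts) was in WT + NACET replicate 5, the library with 16256 CPM of lens genes. Its difference in WT + NACET against WT was 0.89 ± 0.6 (adjusted p = 0.419), and 0.02 ± 0.33 without that library. The highest values of the Akita groups, 3.3 and 2.23 CPM, were in Akita replicate 2 and Akita + NACET replicate 3, which also held lens RNA. Akita + NACET replicate 5, with 270.3 CPM of lens genes, had the lowest value of its group, 1.5 CPM. Akita replicate 3 had 2.76 CPM of Hspb1 with 8.1 CPM of lens genes. The part of lens RNA in the Hspb1 values was not tested.

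Hspd1 and Hspe1, the HSP60 barrel of the mitochondrial chaperonin and its HSP10 lid, share a promoter region, and each was called in 1 comparison, not the same one. Hspd1 was at 56.7, 50.8 and 63.6 CPM in WT and at 58.9 to 67.6 CPM with a median of 64.7 in WT + NACET. It was at 59.3, 59.2, 68.5 and 75.3 CPM in Akita and at 56.8, 55.5, 53.9, 56.3 and 59.9 CPM in Akita + NACET. NACET thus went with somewhat higher values in WT and lower ones in Akita, with overlap in both. The interaction of genotype with NACET was called for Hspd1, at -0.37 ± 0.12 (adjusted p = 0.0362), as 1 of 10 members where 20.3% of all genes were called. It was called in 13 of 27 alternatives. With the share of reads beyond exons as covariate the estimate was -0.18 (adjusted p = 0.766), and leaving out Akita replicate 3 or 4, Akita + NACET replicate 2, 3 or 4, WT replicate 1 or 2, or WT + NACET replicate 3, 5 or 6 ended the call, with adjusted p from 0.0503 to 0.123. It was also lost with no filter (0.0723), with the replicate block (0.0731) and without both libraries that stood apart (0.13). The effects in each genotype were 0.16 ± 0.09 in WT (adjusted p = 0.325) and -0.21 ± 0.08 in Akita (adjusted p = 0.0957).

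In the same interaction Hspe1 differed by -0.26 (adjusted p = 0.263). It was at 37.1, 34.3 and 36 CPM in WT and 33.8 to 41.8 CPM with a median of 38.3 in WT + NACET. It was at 31.9, 34.4, 40.1 and 27.1 CPM in Akita and at 28.8, 29.4, 35.5, 31.9 and 23.5 CPM in Akita + NACET. The treated groups overlapped only through Akita + NACET replicate 3. Hspe1 was lower in Akita + NACET than in WT + NACET by 0.36 ± 0.1 on the log2 scale (adjusted p = 0.0266), the remaining call of that comparison. The call held in 24 of 29 alternatives and was lost with the covariate and without Akita + NACET replicate 2 or 5 or WT + NACET replicate 3 or 5, with adjusted p of 0.297, 0.0544, 0.0875, 0.0509 and 0.057. Reads in the 112 bases common to Hspd1 and Hspe1 cannot be assigned without strand.

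**Figure D3:**
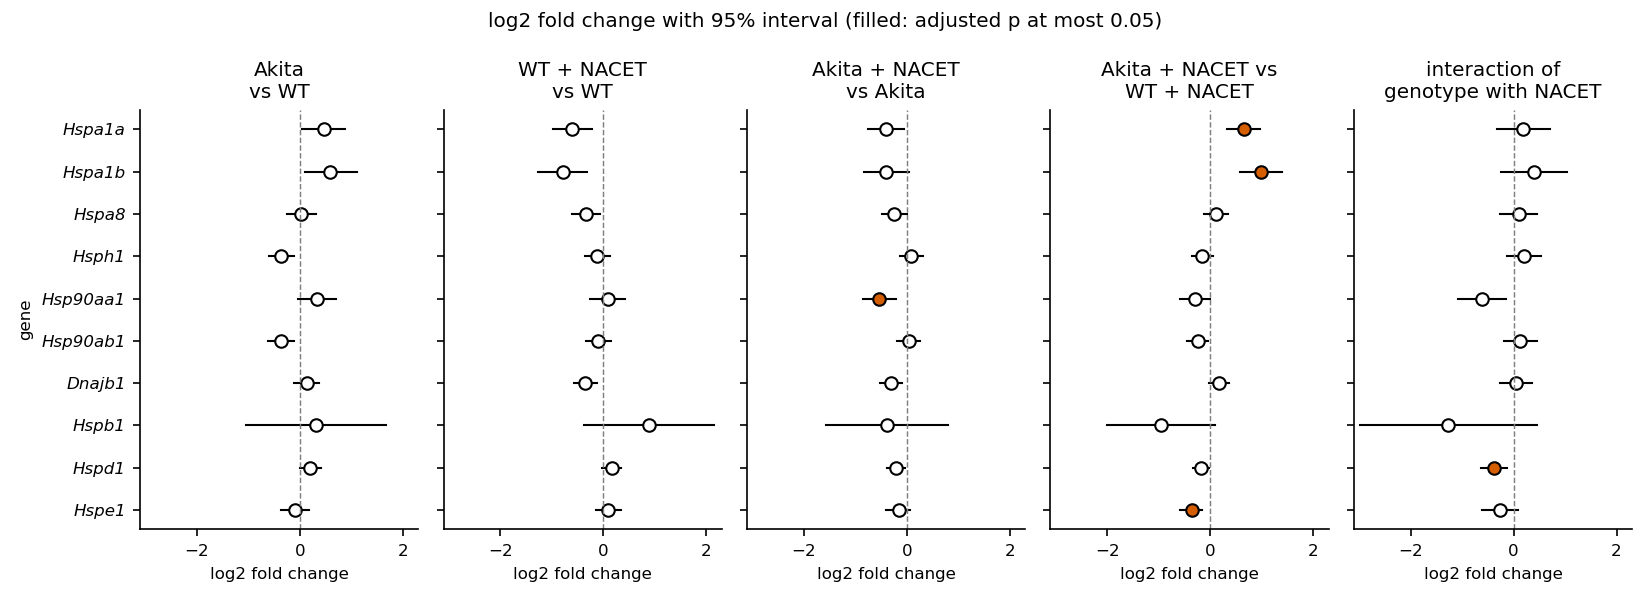
log2 fold change (x axis) of the 10 genes in 4 comparisons and the interaction, with 95% intervals as bars. Filled points have an adjusted p of at most 0.05: Hsp90aa1 in Akita + NACET vs Akita, Hspa1a, Hspa1b and Hspe1 in Akita + NACET vs WT + NACET, and Hspd1 in the interaction.

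As a set, the 10 genes were not called more often than all genes in most comparisons. In Akita against WT, edgeR called 0 of 10 members where 7.64% of all genes were called. At an unadjusted p under 0.05 there were 5 of 10 (27% of all genes), and DESeq2 called 1. In WT + NACET against WT, edgeR called 0 of 10 (1.48% of all genes), with 4 at an unadjusted p under 0.05, all lower, against 19.5% of all genes, and DESeq2 called 2. In Akita + NACET against WT, edgeR called 0 of 10, with 3 at an unadjusted p under 0.05 (4.63% of all genes), and DESeq2 called 0. There edgeR called 1 gene of all tested (0.00618%). The share of all genes called by DESeq2 is not given here, so its counts are no result about the members. The median log2 fold change of the members was -0.27 in Akita + NACET against Akita, -0.11 in WT + NACET against WT and 0.16 in Akita against WT, where the medians over all genes were -0.003, -0.014 and -0.015. Together the 10 genes summed to 1249 ± 114 CPM in WT (SD, n = 3), 1116 ± 80 in WT + NACET (n = 6), 1235 ± 88.9 in Akita (n = 4) and 1071 ± 52.2 in Akita + NACET (n = 5).

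Averaging a contrast over the other factor used all 18 libraries at once, in comparisons added after the data were seen. Akita averaged over both treatments called 3 of 10 members, where 2.65% of all genes were called. Hspa1a was higher by 0.55 ± 0.13 (adjusted p = 0.0282), Hspa1b was higher by 0.79 ± 0.16 (adjusted p = 0.0119) and Hsp90ab1 was lower, at -0.31 ± 0.08 (adjusted p = 0.0394). With the share of reads beyond exons as covariate, these 3 and Hsph1 were called, where 3.97% of all genes were called. Without WT replicate 1, the WT library lowest in both HSP70 genes, none of the 3 was called (adjusted p = 0.0984, 0.0578 and 0.143), nor with the replicate block (adjusted p = 0.118, 0.055 and 0.13). In these 2 fits 0.425 and 0.587% of all genes were called. Hspa1a was also lost without WT replicate 2 or Akita + NACET replicate 4 (adjusted p = 0.0548 and 0.0567) and with no filter on low counts (adjusted p = 0.0518). Hsp90ab1 was called in 13 of 27 alternatives and was also lost without both libraries that stood apart (adjusted p = 0.0954), without Akita replicate 4, without any WT + NACET library but replicate 1, without any Akita + NACET library but replicate 3 and without WT replicate 1 or 2, with adjusted p from 0.05, just above the threshold before rounding, to 0.143. NACET averaged over both genotypes called 0 of 10 members (0.222% of all genes), with 4 at an unadjusted p under 0.05 (8.3% of all genes), all lower: Hspa1a (-0.5 ± 0.12, adjusted p = 0.156), Hspa1b (-0.6 ± 0.15, adjusted p = 0.164), Hspa8 (-0.29 ± 0.09, adjusted p = 0.263) and Dnajb1 (-0.33 ± 0.07, adjusted p = 0.081). DESeq2 called 3 of these, Hspa1a, Hspa1b and Dnajb1, with its share over all genes not given. In edgeR, Dnajb1 was called without Akita replicate 2, WT replicate 1 or WT + NACET replicate 5.

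Within groups, libraries that were high in Hspa1a were also high in Hspa1b and Dnajb1. Deviations from the group means on the log2 CPM scale were correlated between Hspa1a and each of the other 9 members over 18 libraries, with libraries permuted within groups (100000 resamples, two-sided). Pearson's r was 0.85 with Hspa1b (adjusted p = 0.0031 over the 9 relations, permutation test) and 0.78 with Dnajb1 (adjusted p = 0.0031, permutation test). Spearman's rank correlation was 0.79 and 0.74 (adjusted p = 0.00819 and 0.0135, permutation test). Without the 2 libraries farthest out in Hspa1a, Akita replicate 4 and WT replicate 1, r was 0.77 and 0.69. Hsp90ab1 ran opposite, with r = -0.71 (adjusted p = 0.0322, permutation test), a rank correlation of -0.61 (adjusted p = 0.0758, permutation test) and r = -0.53 without these libraries. The raw permutation p for r was 0.00048, 0.00069 and 0.0107 for Hspa1b, Dnajb1 and Hsp90ab1. For the other 6 members r was from -0.3 to 0.64, with adjusted p of 0.0889 or more (permutation test).

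**Figure D4:**
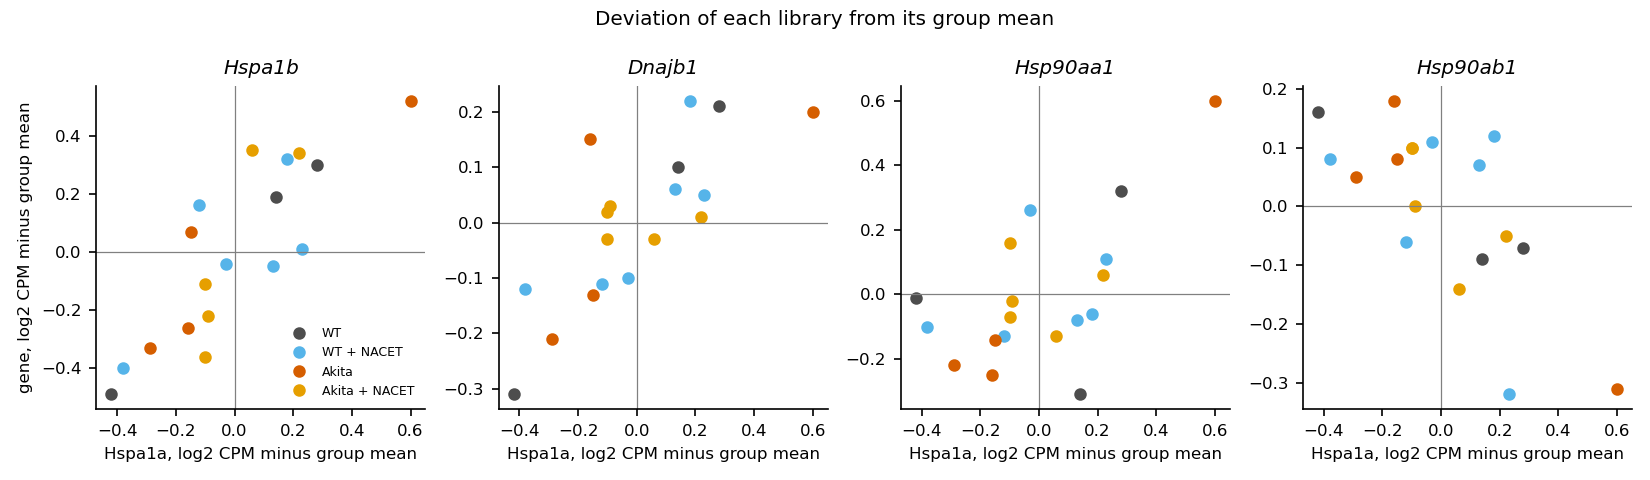
Deviation of each library from its group mean in log2 CPM, for Hspa1a (x axis) and Hspa1b, Dnajb1, Hsp90aa1 or Hsp90ab1 (y axis), coloured by group. Points rise together for Hspa1b (r = 0.85) and Dnajb1 (r = 0.78) and fall for Hsp90ab1 (r = -0.71). The point farthest right in each panel is Akita replicate 4.

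Among 14462 other genes with a mean of at least 1 CPM, the gene whose log2 CPM over 18 libraries was most like the mean standardised profile of the members was Cct4 (r = 0.9), a subunit of the cytosolic chaperonin TRiC. Next came Cryzl1 (0.85), Snx3 (0.84), Gm12444, Paip2b and Manf (0.82 each), Ube2w and Hsdl2 (0.8 each), Rabggtb (0.79) and Tdrd3 (0.78). Manf encodes a secreted factor of the endoplasmic reticulum that is induced when proteins misfold there. Of these 10 genes, only Cct4 and Manf are on the chaperone lists used here, and the others are on none of the lists. These are descriptions over libraries that share groups, and without the 2 libraries that stand apart r was from 0.74 to 0.87.

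Over the 9 lists of other chaperones and their regulators, 8 of 110 genes (7.27%) were called in Akita against WT and 10 (9.09%) in Akita + NACET against Akita, close to the 7.64 and 9.65% of all genes. In WT + NACET against WT 4 (3.64%) were called, against 1.48% of all genes. In Akita + NACET against WT + NACET 20 (18.2%) were called, 16 of them lower, and in the interaction 26 (23.6%), 20 of them lower, against 13.3 and 20.3% of all genes. The interaction calls included 8 of 20 HSP90 co-chaperones (5 lower) and 6 of 15 chaperones of the endoplasmic reticulum (all lower). They also included 4 of 7 heat shock factors and regulators, named below. The calls were 0 of 11 HSP70 co-chaperones, 1 of 12 mitochondrial chaperones and proteases and 1 of 8 other HSP70 and HSP110 genes. Of 17 other J-domain genes 2 were called, of 13 TRiC and prefoldin genes 2 and of 7 other small heat shock genes 2. With the share of reads beyond exons as covariate, 0 of the 110 were called in the first 3 comparisons and in the interaction, and 4 in Akita + NACET against WT + NACET. Without Akita replicate 4, 0 were called in Akita + NACET against Akita and 2 in Akita against WT, and without WT replicate 1 or 2, 0 in Akita against WT and 1 in WT + NACET against WT. These limits apply to the calls named from these lists. Of 7 heat shock factors and their regulators, none was called in Akita against WT, Akita + NACET against Akita or WT + NACET against WT. In the interaction 4 of 7 were called (20.3% of all genes), named here after their values were seen: Hsf1 (0.52 ± 0.17) and Hsf2 (0.67 ± 0.21) were higher, and Hsbp1 (-0.47 ± 0.16), a protein that binds HSF1, and Hsbp1l1 (-0.56 ± 0.19) were lower. In the covariate fit these were 0.13, 0.2, 0.01 and -0.12, with adjusted p of 0.858 or more. Hsf1 itself averaged 35.1 CPM.

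Of 8 other HSP70 and HSP110 genes, 1 was called in Akita against WT (7.64% of all genes), and this was Hspa12a, a distant HSP70 relative, at -0.44 ± 0.12 (adjusted p = 0.0325). It was higher again in Akita + NACET against Akita, by 0.36 ± 0.11 (adjusted p = 0.0387), where Hspa4l, an HSP110, was lower (-0.41 ± 0.13, adjusted p = 0.0463). Of 17 other J-domain genes, 2 were called in Akita against WT (7.64% of all genes), both higher. Dnajb12, a J-domain protein of the endoplasmic reticulum membrane that recruits Hspa8, rose by 0.79 ± 0.14 (adjusted p = 0.0117) from 8.52 ± 0.407 CPM in WT (n = 3) to 14.8 ± 1.59 in Akita (n = 4), and Dnajc5, the cysteine string protein of synaptic vesicles, rose by 0.46 ± 0.13 (adjusted p = 0.0388). In Akita + NACET against Akita, Dnajb12 was lower (-0.56 ± 0.12, adjusted p = 0.0197), as was Dnajb2 (-0.43 ± 0.13, adjusted p = 0.041), which sorts HSP70 clients to the proteasome. Both comparisons use the same Akita libraries. Of 11 HSP70 co-chaperones, Bag6 was called in Akita against WT (0.29 ± 0.09, adjusted p = 0.0456).

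Of 20 HSP90 co-chaperones, 2 were called in each of these 3 comparisons, all lower. Over all genes, 7.64% were called in Akita against WT, 9.65% in Akita + NACET against Akita and 1.48% in WT + NACET against WT. Ppid, a cyclophilin bound to HSP90, fell in Akita against WT (-0.36 ± 0.08, adjusted p = 0.0168), with 50.1 to 53.8 CPM in Akita and 64 to 67.3 in WT. Chordc1, an HSP90 co-chaperone that is itself induced by heat, fell in Akita against WT (-0.36 ± 0.1, adjusted p = 0.0299) and in WT + NACET against WT (-0.38 ± 0.09, adjusted p = 0.0325), which share the 3 WT libraries. Cdc37l1 was also lower in WT + NACET against WT (-0.34 ± 0.07, adjusted p = 0.011). In Akita + NACET against Akita the called genes were Nudc (-0.34 ± 0.08, adjusted p = 0.0214) and Aipl1 (-0.51 ± 0.14, adjusted p = 0.0336), the photoreceptor co-chaperone needed to fold the rod phosphodiesterase. Of 5 rod markers tested, 2 were called in the same comparison, Gnat1 (-0.65, adjusted p = 0.0238) and Nrl (-0.49, adjusted p = 0.03), both lower. The part of rods in the Aipl1 difference was not tested.

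Of 7 other small heat shock genes tested among 9 listed, Hspb6 fell in Akita + NACET against Akita (-0.59 ± 0.12, adjusted p = 0.0161) and Hspb11 rose in WT + NACET against WT (0.44 ± 0.1, adjusted p = 0.035). Of 13 TRiC and prefoldin genes in the files, Cct5 was called, lower in Akita + NACET against Akita (-0.4 ± 0.1, adjusted p = 0.021). None of 12 mitochondrial chaperones and proteases was called in these 3 comparisons, where 7.64, 9.65 and 1.48% of all genes were called. Of 15 chaperones of the endoplasmic reticulum, the disulfide isomerases Pdia4 (0.4 ± 0.1, adjusted p = 0.0247) and P4hb (0.4 ± 0.12, adjusted p = 0.0492) rose in Akita against WT. Both were lower in Akita + NACET against Akita (-0.32 ± 0.09 and -0.42 ± 0.11, adjusted p = 0.0291 and 0.0239), which uses the same Akita libraries. Dnajb11, the J-domain partner of BiP, rose in WT + NACET against WT (0.31 ± 0.07, adjusted p = 0.039).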

How the data were processed

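Poly(A) RNA of mouse retina was sequenced as single reads. Per the labels and the study's methods, the authors aligned the reads to mm9 with TopHat2 2.1.0 and Bowtie and deposited counts per gene from HTSeq 0.11.2, with strand not used and reads that aligned to several places (9.04% of reads on average) not counted. The deposited counts are whole numbers and not normalised. The 185 rRNA genes, as in the study, the rows that name no gene (0.00544% of counts on average) and the HTSeq summary rows were left out.

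All 18 libraries entered 1 edgeR 4.0.16 quasi-likelihood fit (R 4.3.3) of 4 groups with TMM scaling, on 16183 genes kept by filterByExpr, with Benjamini-Hochberg adjustment over all of them and calls at an adjusted p of at most 0.05. The study used DESeq2, tried here (1.42.0) as an alternative. CPM use TMM library sizes, and log2 CPM a prior count of 2. The test was checked on simulated counts. In 34 pairs of replicates, all differed by more than sampling noise (chi-square per degree of freedom 4.67 to 50.8). The members and gene lists were chosen with earlier results of these data known. Genes named outside the members are those called in their list at a mean of at least 1 CPM, at most 3 per direction in the genotype comparison without NACET and in the NACET comparison of each genotype, and the 10 most like the members' mean profile. Outside this rule, 4 heat shock factor genes of the interaction and 2 rod markers were named after their values were seen. Positions are from GENCODE vM1 on NCBIM37, identities from Biopython 1.88, and promoters from RefSeq (GRCm38.p6). One listed rod marker is not reported here.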

Additional observations from a re-analysis of the deposited data

Results flagged for a closer look

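Among 30 sets of a gene in a group of 4 to 6 libraries, 5 had a library far from the rest by Dixon's ratio of gap to range, where chance gives about 1 in 20 sets. Akita replicate 4 stood out for Hspa1a (141 CPM, next 84) and for Hsp90aa1 (281 CPM, next 168). WT + NACET replicate 5 stood out for Hspb1 (11 CPM, next 2.95). Akita + NACET replicate 1 was low for Hsph1 (60.4 CPM, next 83), and Akita + NACET replicate 3 was high for Hspb1 (2.23 CPM, next 1.68). The interaction of genotype with NACET was called for Hspd1, at -0.37 ± 0.12 on the log2 scale (edgeR adjusted p = 0.0362), where 20.3% of all genes were called. The call was kept in 13 of 27 alternatives. With the share of reads beyond exons as covariate the estimate was -0.18 (adjusted p = 0.766).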

How the results depend on the processing

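Counts of members called moved with the method. DESeq2 on all groups called 1 in Akita vs WT (edgeR 0), 2 in Akita + NACET vs Akita (edgeR 1), 2 in WT + NACET vs WT (edgeR 0), 2 in the interaction (edgeR 1) and 3 for NACET averaged over genotypes (edgeR 0). DESeq2 on the compared groups called 2 in Akita + NACET vs Akita, 2 in WT + NACET vs WT and 5 in Akita + NACET vs WT + NACET (edgeR 3). edgeR on the compared groups called 0 in Akita + NACET vs Akita. The shares of all genes called by DESeq2 and on the compared groups alone are not given here. No filter gave 0 in Akita + NACET vs Akita and in the interaction (3.68 and 9.31% of all genes). Only genes of at least 50 counts on average gave 2 in Akita vs WT (10.5% of all genes). With reads beyond exons as covariate the count was 0 in Akita + NACET vs Akita, Akita + NACET vs WT + NACET and the interaction (0, 1.2 and 0.105% of all genes). Leaving out 1 library gave 0 to 2 in Akita vs WT (0 to 1612 of all genes) and 0 to 2 in Akita + NACET vs Akita (1 to 1757). It gave 0 to 2 in WT + NACET vs WT (72 to 461) and 0 to 2 in the interaction (1699 to 3524). It gave 0 to 1 for NACET averaged (19 to 46) and 0 to 4 for Akita averaged (70 to 580). Without both Akita replicate 4 and WT + NACET replicate 5, chosen after seeing the data, the count was 0 in Akita + NACET vs Akita, 0 in the interaction and 2 in WT + NACET vs WT. The shares of all genes were 0.0497, 15 and 1.42%. The replicate numbers do not pair the libraries (22 pairs, r from -0.33 to 0.34, 2 of 18 libraries closest to their own number). As a block they gave 0 in Akita + NACET vs Akita, 0 in the interaction and 0 for Akita averaged (1.35, 16.4 and 0.587% of all genes). The cause of these changes was not tested. The motif of 2 units matched 6 promoters, that of 3 units 3.

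Directions turned for uncalled log2 differences. Those of Hspb1 were not all small. Without both libraries they went from -0.32 to 0.23 for Akita averaged and from 0.26 to -0.29 for NACET averaged. Under the covariate: Dnajb1 in Akita vs WT (-0.04), Hspa8 (-0.21) and Hspb1 (-0.03) there, Hsp90aa1 (-0.06) and Hspe1 (0) in WT + NACET vs WT, Hsp90aa1 for Akita averaged (0) and Hsph1 for NACET averaged (0.01). Under the block: Hspa1a in Akita + NACET vs WT (-0.05), Hsp90aa1 for Akita averaged (-0.02), Hspb1 (-0.04) and Hspe1 (0.01) for NACET averaged. Without both libraries: Hsp90ab1 in Akita + NACET vs Akita (-0.04), Hsp90aa1 (-0.11), Hspb1 (0.23) and Hspd1 (-0.02) for Akita averaged, Hspb1 (-0.29), Hspd1 (0.01) and Hsph1 (0) for NACET averaged. Ranges over single libraries left out were, in Akita vs WT, -0.01 to 0.22 for Dnajb1 and -0.12 to 0.11 for Hspa8. In WT + NACET vs WT, Hsp90aa1 ran from -0.05 to 0.27, and in Akita + NACET vs Akita, Hsp90ab1 from -0.05 to 0.1. In Akita + NACET vs WT, Hspa1a ran from -0.13 to 0.21, Hspa1b from -0.02 to 0.37 and Hspd1 from -0.09 to 0.08, and in the interaction Dnajb1 from -0.04 to 0.18. For Akita averaged, Hsp90aa1 ran from -0.1 to 0.11, Hspa8 from 0 to 0.11, Hspb1 from -0.45 to 0.11 and Hspd1 from -0.02 to 0.06. For NACET averaged, Hsp90ab1 ran from -0.08 to 0.01, Hspb1 from -0.18 to 0.38, Hspd1 from -0.07 to 0.03, Hspe1 from -0.08 to 0.02 and Hsph1 from -0.05 to 0.04.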
